A study of Rattus norvegicus with 8 samples.

Results

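Opcml, Mdga2 and Ptprm are 3 cell adhesion genes whose regions are among the hypermethylated regions that the study listed for urothelial carcinomas (UCs) of the rat bladder. The regions, in coordinates of the rat genome build rn6, are chr8:29452811-29452971 for Opcml, chr6:89292302-89292337 for Mdga2 and chr9:115555234-115555258 for Ptprm. Each region was joined by all CpGs up to 1 kb on either side. Of 2052737 CpGs read in every sample, 275 were in these windows, 54 of them at Opcml, 81 at Mdga2 and 140 at Ptprm. The listed regions themselves held 32 of the 275, with 23 at Opcml, 3 at Mdga2 and 6 at Ptprm. Counting CpGs that were read in some samples only, the windows held 338, and those not read in all were not used. The study chose the regions because they were more methylated in these UCs than in these controls, so the levels at the 3 genes are described here with no test of that difference.

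The samples were 5 UCs (UC 1 to UC 5) of rats given 200 ppm dimethylarsinic acid (DMAV), a methylated metabolite of arsenic, in the drinking water for 104 weeks, and 3 bladders (control 1 to control 3) of rats given 0 ppm. The rats were F344/DuCrj animals, male by the study's text, and 10 weeks old at the start. Macroscopic tumours were sampled, the controls are called urothelium in the labels and bladder in the methods, and no readout that could check the cell makeup was analysed here. The sources do not say that the 5 UCs came from 5 animals. The UCs may therefore not be independent, and their SDs may not show the spread between animals.

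Opcml encodes a member of the IgLON family, cell surface proteins with immunoglobulin domains that are held in the membrane by a glycosylphosphatidylinositol anchor. Mdga2 encodes another glycosylphosphatidylinositol-anchored protein with immunoglobulin domains and a MAM domain, known as a partner of neuroligins at synapses. Ptprm encodes a receptor-type protein tyrosine phosphatase whose extracellular part binds the same molecule on a neighbouring cell and whose intracellular part removes phosphate from tyrosines of junction proteins. CpG-rich promoters are mostly unmethylated in normal tissues, and methylation of such promoters is a known companion of gene silencing in cancers. RNA was not analysed here.

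The promoter sequences of Mdga2 and Ptprm show where the measured CpGs lie. They are given from RefSeq (build GRCr8) and run 5′ to 3′ on the strand of the gene, which is the minus strand for both. The Mdga2 sequence is the 250 bases before the start site and the Ptprm sequence goes 28 bases past it, through the last CpG of the listed region. Capitals mark the CpGs that were read in all 8 samples. No coordinate was converted between builds. The sequences were placed by the spacing of their CpGs, and all 16 listed CpG positions fell on a CpG of the Mdga2 promoter and all 26 on a CpG of the Ptprm promoter.
Mdga2: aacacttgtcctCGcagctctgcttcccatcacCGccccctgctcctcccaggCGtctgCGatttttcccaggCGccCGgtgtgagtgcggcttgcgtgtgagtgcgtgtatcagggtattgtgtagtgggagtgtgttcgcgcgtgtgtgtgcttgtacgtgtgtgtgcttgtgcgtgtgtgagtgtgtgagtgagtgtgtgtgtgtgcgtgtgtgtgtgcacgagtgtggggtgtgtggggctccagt
Ptprm: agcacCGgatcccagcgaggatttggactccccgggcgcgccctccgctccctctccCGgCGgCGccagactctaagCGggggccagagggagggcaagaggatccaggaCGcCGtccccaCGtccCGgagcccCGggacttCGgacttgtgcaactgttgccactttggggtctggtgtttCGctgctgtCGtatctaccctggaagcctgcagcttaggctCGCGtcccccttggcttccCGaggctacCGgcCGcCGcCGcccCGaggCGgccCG

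In the Ptprm promoter, of which 300 bases (chr9:114790428-114790727, GRCr8) were examined, all 26 matched CpGs were read in every sample, and the 6 CpGs of the listed region are the last 6 pairs of capitals, at bases +6 to +27 after the start site. The listed region of Ptprm thus lies at the beginning of the first exon as RefSeq places the start. In the Mdga2 promoter (chr6:91344344-91344643, GRCr8) only 6 CpGs, at bases -238 to -173, were read in every sample. The 3 CpGs of the listed Mdga2 region lie farther upstream, within bases -310 to -275, and are not in the printed sequence. GC content was 70.0% at Ptprm, above 91.7% of 33469 RefSeq promoters of the same length, and 60% at Mdga2, above 73.8% of them. The ratio of observed to expected CpGs was 0.847 at Ptprm and 0.775 at Mdga2, above 84.4% and 78.5% of the promoters. Libraries were cut with MspI at CCGG and with TaqI at TCGA. The Ptprm promoter holds 7 CCGG sites and the Mdga2 promoter 1, against at least 1 in 51.4% of all promoters, and neither holds TCGA, which 23.0% of promoters do. Both motifs read the same on both strands.

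Total calls per sample were 51434938 to 73836223 over 2526077 to 2821347 CpGs, with a median of 14 to 18 reads per CpG. UC 1 and UC 2 were more alike than other UCs, as were UC 4 and UC 5. Over the 536046 CpGs of the genome with at least 10 reads and a mean control level under 10%, the correlation between CpGs was 0.922 for UC 1 and UC 2 and 0.898 for UC 4 and UC 5, and it was 0.507 to 0.578 for the other 8 pairs of UCs. Whether these pairs share an animal was not tested. The region differences and the CpG counts are also given with each pair counted as 1 sample.

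All 3 listed regions had low methylation in the controls and higher levels in the UCs. The Opcml region was methylated at 4.42% in control 1, 0.667% in control 2 and 0.856% in control 3. Its level was 14.5%, 15.6%, 15.4%, 8.44% and 8.08% in UCs 1 to 5. Every UC was above every control, and UC 4 and UC 5 were lower than the other 3 UCs. The mean was 1.98% ± 2.11 (SD, n = 3) in controls and 12.4% ± 3.82 (SD, n = 5) in UCs, a difference of 10.4 percentage points. Between 253 and 1200 calls lay behind each of these values. By 95% Wilson intervals, UC 4 (6.24% to 11.3%) and UC 5 (6.09% to 10.6%) overlapped narrowly with control 1 (3.05% to 6.35%), and no other UC overlapped with any control. These intervals cover counting error only. In a bulk sample, methylation of more cells and a larger share of cells that are methylated in any case cannot be told apart.

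The Mdga2 region, the one with the fewest CpGs and calls, was methylated at 11.1% in control 1, where 4 of 36 calls were methylated. It had 0 methylated calls in control 2 (of 49, with a Wilson interval up to 7.27%) and in control 3 (of 133, up to 2.81%). By a limit of 3 counts, these zeros allow levels of up to 6.12% and 2.26%. Its level was 23.9%, 13%, 11.1%, 17.9% and 27.6% in UCs 1 to 5. The groups were not separated, since UC 3 and control 1 had the same level. The mean was 3.7% ± 6.42 (SD, n = 3) in controls and 18.7% ± 7.04 (SD, n = 5) in UCs, a difference of 15.0 percentage points, and the difference was 18.7 points without control 1. With 36 to 133 calls per sample, the interval of control 1 ran from 4.41% to 25.3% and overlapped with those of all 5 UCs.

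The Ptprm region had 1 methylated call of 143 in control 1, a level of 0.699%, and 0 in control 2 (of 103, with a Wilson interval up to 3.6%) and in control 3 (of 254, up to 1.49%). The limit of 3 counts is 2.91% and 1.18% for these zeros. Its level was 14.8%, 10.7%, 4.39%, 15.5% and 8.13% in UCs 1 to 5. Every UC was above every control, and UC 3 was the lowest UC. The mean was 0.233% ± 0.404 (SD, n = 3) in controls and 10.7% ± 4.64 (SD, n = 5) in UCs, a difference of 10.5 points. The interval of UC 3 (1.89% to 9.86%) overlapped with those of control 1 and control 2, while those of the other UCs were above all controls. With UC 1 and UC 2 merged, and UC 4 and UC 5 merged, the differences were 10.9 points at Opcml, 14.2 at Mdga2 and 9.37 at Ptprm. Opposite-strand reads, which would show a base variant at a CpG, were G in 99.95% to 99.98% of calls over the 3 windows. These shares pool all CpGs and samples of a window. At 1 CpG of the Mdga2 window the share was under 90% in at least 1 sample, and at no CpG of the other windows.

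**Figure D1:**
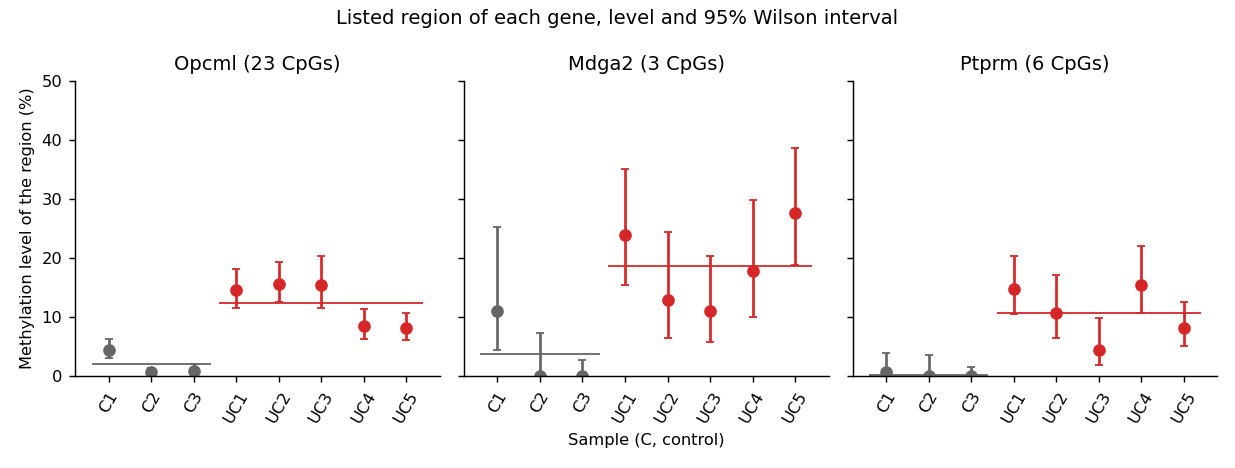
Methylation level of the listed region of each gene (%) in controls C1 to C3 (grey) and in UC1 to UC5 (red), with 95% Wilson intervals as error bars and group means as horizontal lines. At Opcml and Ptprm all 5 UCs were above all 3 controls, whereas at Mdga2 UC3 and C1 were both at 11.1%.

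Among single CpGs, those at which every UC was above every control made up 8.05% of all CpGs read in every sample and 3.45% of those with a mean control level under 10%. They were 25 of 81 at Mdga2 (30.9%), 23 of 140 at Ptprm (16.4%) and 6 of 54 at Opcml (11.1%). CpGs at which every UC was below every control, 6.07% of all CpGs and 0.598% of those with a low control level, were 0 in the 3 windows. Because the contrast chose the regions, nothing is read from these shares for the regions themselves, and the flanks share molecules and promoters with them. Outside the regions the counts were 24 of 78 at Mdga2, 19 of 134 at Ptprm and 4 of 31 at Opcml. Without UC 3 the count outside the Ptprm region was 38, and without control 1 that outside the Opcml region was 7. In the regions the counts were 1 of 3, 4 of 6 and 2 of 23, so that the Opcml region was separated as a whole although few of its CpGs were. The Opcml region count became 4 without control 1, UC 2 or UC 5 and 5 without UC 4, and the Mdga2 region count became 2 without control 1. With UC 1 and UC 2 merged and UC 4 and UC 5 merged, the counts outside the regions were 31 at Mdga2, 38 at Ptprm and 8 at Opcml, and those in the regions were 2, 5 and 6. Leaving out or merging samples can only keep or raise such counts. The shares over all CpGs were not computed for either, so those given above are no measure for these counts. The windows were almost free of methylation in controls, with a mean control level under 10% at 50 of 54 CpGs of Opcml, 76 of 81 of Mdga2 and 140 of 140 of Ptprm. The highest mean control level of a single CpG was 18.1% at Opcml, 14.1% at Mdga2 and 5.68% at Ptprm. The mean of the UCs was above that of the controls at 42 of 54, 70 of 81 and 131 of 140 CpGs in the same order, against 43.3% of all CpGs with such a low control level. The UC mean was higher by over 20 points at 4 CpGs of Opcml, 16 of Mdga2 and 3 of Ptprm. Among CpGs read in every sample this held at 22371 of the 713298 with a low control level and at 169407 of all 2052737. The share at Ptprm was below both of these shares, and that at Opcml lay between them. Of the Ptprm CpGs over 20 points, only chr9:115555004 had at least 10 reads in every sample.

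**Figure D2:**
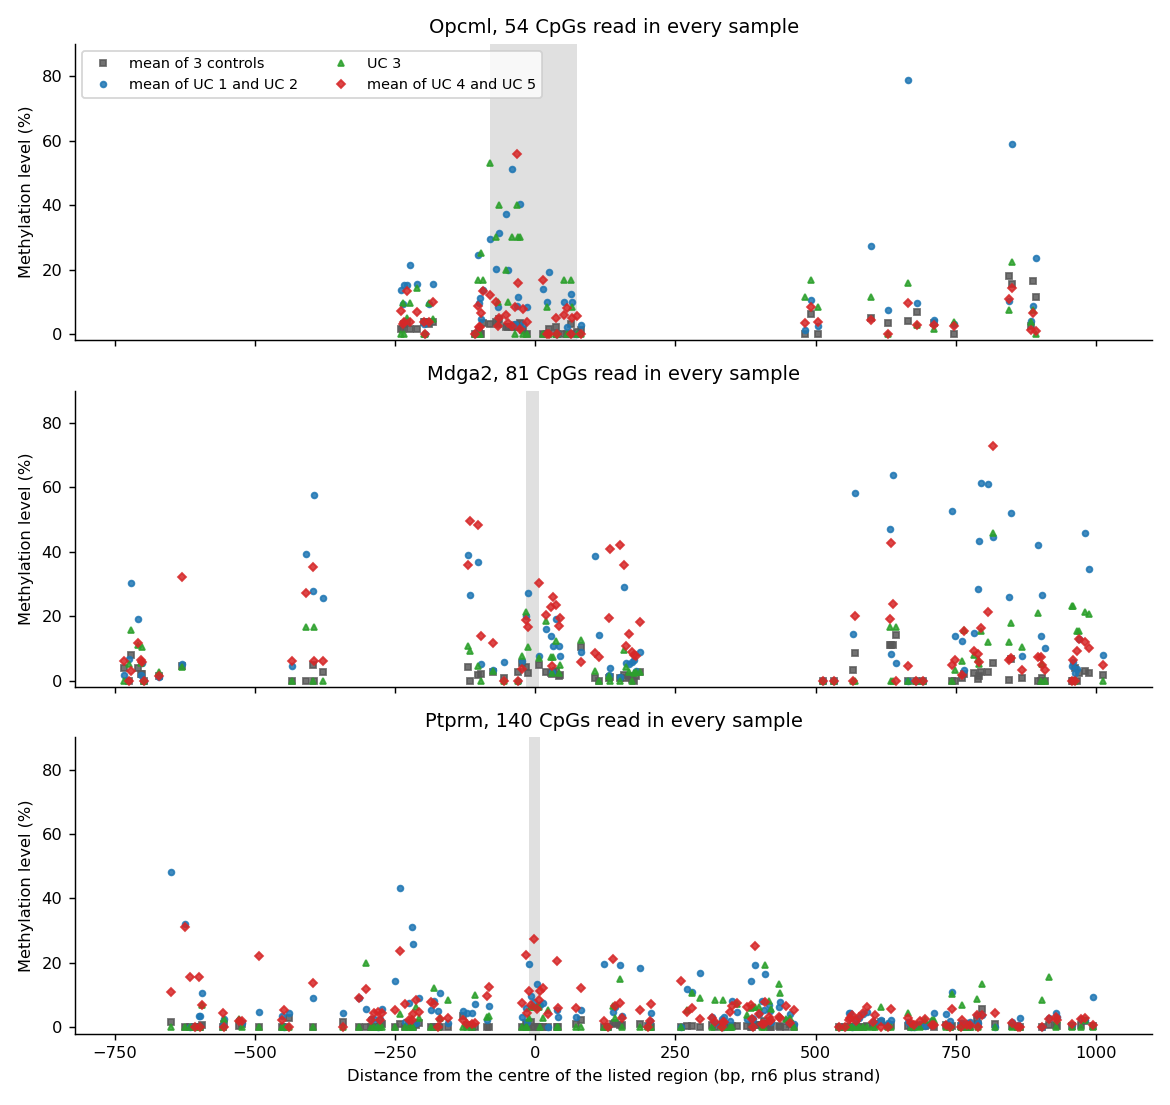
Methylation level (%) of each CpG against its distance from the centre of the listed region (bp), for the mean of the controls (grey squares), the mean of UC 1 and UC 2 (blue circles), UC 3 (green triangles) and the mean of UC 4 and UC 5 (red diamonds). Grey bands span the CpGs of the listed region. Levels above 40% occur across the Mdga2 window, at few CpGs of the Opcml window, and only in the mean of UC 1 and UC 2 at Ptprm.

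The difference outside the listed regions was not of the same size at the 3 genes. The regions were chosen for a high difference in these samples, so a lower value in the flanks is partly set by that choice. At Mdga2 the flanks, like the region, were more methylated in the UCs. The 78 CpGs outside the region had levels of 2.92%, 1.62% and 1.23% in controls 1 to 3 and of 15.6%, 17.5%, 7.29%, 15.2% and 17.1% in UCs 1 to 5. Every UC was above every control, with UC 3 the lowest, and the difference was 12.6 points, against 15.0 points in the region, on 2124 to 3754 calls per sample. By distance, the difference was 11.1 points within 100 bp of the region, 12.4 points from there to 500 bp, and 14.5 points beyond 500 bp. The last class was uneven. Its 9 CpGs at chr6:89291586-89291689, downstream of the start site, had levels of 6.74%, 1.85% and 0% in controls 1 to 3 and of 9.15%, 4.29%, 5.70%, 9.83% and 6.36% in UCs 1 to 5. The groups overlapped there, the difference was 4.20 points, and 0 of the 9 CpGs had every UC above every control.

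At Ptprm the difference was smaller outside the region, and smallest farthest from it. The 134 CpGs outside the region had levels of 0.408%, 0.559% and 0.653% in controls 1 to 3 and of 5.11%, 4.83%, 2.83%, 4.57% and 4.10% in UCs 1 to 5. All UCs were above all controls, although each was below 6%. The difference was 5.32 points within 100 bp, 5.38 points from there to 500 bp and 1.81 points beyond 500 bp, against 10.5 points in the region, and 3142 to 7808 calls lay behind each sample's flank value. On the gene's strand, the 46 CpGs downstream of the region differed by 5.34 points and the 88 upstream of it, which include the promoter, by 3.2 points. The upstream CpGs also reached farther from the region, and side and distance were not separated.

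At Opcml the stretches on either side of the region differed, and they also lay at different distances from it. The 16 CpGs at chr8:29452651-29452798, next to the region, had levels of 2.58%, 1.27% and 1.52% in controls 1 to 3 and of 11.7%, 12.7%, 6.62%, 5.82% and 5.47% in UCs 1 to 5. Every UC was above every control, and the difference was 6.67 points. The 14 CpGs on the other side, at chr8:29453372-29453784, had levels of 9.02%, 3.72% and 5.38% in controls and of 20.3%, 22.3%, 7.27%, 4.06% and 5.55% in UCs. Only UC 1 and UC 2 were above all controls there. The difference of 5.86 points became 3.26 points without UC 2, -0.41 points without UC 1 and UC 2, and 1.30 points without a single CpG, chr8:29453555. The remaining CpG, chr8:29452972, was at 0% to 5.56% in all samples.

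Single CpGs reached much higher levels than the regions. At Opcml, the CpG at chr8:29453555 was methylated at 77.2% in UC 1 and 80.2% in UC 2. The level was 15.9% in UC 3, 8.33% in UC 4 and 11% in UC 5, and 2.70% to 5.32% in controls, on 48 to 111 reads. This CpG separated the groups and had the widest spread among UCs of all CpGs of the window that had 10 or more reads, 71.9 points. Inside the Opcml region, chr8:29452850 and chr8:29452859, 9 bases apart, were high in different UCs. The former was at 41.2%, 61.1%, 30.0%, 5% and 0% in UCs 1 to 5. The latter was at 17.6%, 0%, 40.0%, 65.0% and 46.7% in UCs 1 to 5. Controls were at 0% to 6.25% at both, and the lowest depth was 10 reads. The levels of 8.08% to 15.6% over the Opcml region thus averaged CpGs that were high in different UCs.

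At Mdga2, the CpG at chr6:89293135 had the largest difference of the 3 windows among CpGs of 10 or more reads, 50.6 points. It was at 48.0%, 40.9%, 45.8%, 73.4% and 72.0% in UCs 1 to 5, against 4.29% to 6.90% in controls, on 44 to 117 reads. All 5 UCs were far above the controls, UC 3 included. The CpG 9 bases before it, chr6:89293126, was at 64.7% in UC 1 and 57.4% in UC 2 and at 11.9% to 25.6% in the other UCs. In the printed promoter, a pair of neighbouring capital CpGs are chr6:89292217 (base -191) and chr6:89292203 (base -177). The former was at 31.0%, 42.9%, 4.55%, 46.7% and 50% in UCs 1 to 5, and the latter at 23.8%, 29.4%, 9.09%, 60% and 39.3%. Controls were at 0% to 2.94% at these CpGs, and UC 3 was the lowest UC at both.

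At Ptprm, the CpG at chr9:115555004, downstream of the region, had the largest difference among CpGs of 10 or more reads, 26.4 points. It was at 36.6%, 50%, 4.17%, 22.2% and 25.0% in UCs 1 to 5, and at 0% to 3.57% in controls, on 24 to 56 reads. UC 3 was barely above the highest control. In the region, the CpG at base +17 (chr9:115555244) was at 0% in all controls and at 3.85%, 11.8%, 6.25%, 31.8% and 23.3% in UCs 1 to 5, on 11 to 39 reads. In the printed promoter, the CpG at base -137 (chr9:115555397) was at 21.6%, 17.3%, 15.2%, 8.57% and 6.56% in UCs 1 to 5 and at 0% to 2.27% in controls. UC 4 and UC 5 were the highest at the first of these sites and the lowest at the second.

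The profile over CpGs was shared within the pairs of alike UCs. At Mdga2, over 60 CpGs of at least 10 reads, Pearson's r across CpGs was 0.836 for UC 1 and UC 2 and 0.896 for UC 4 and UC 5, and 0.175 to 0.498 for the other 8 pairs of UCs. At Opcml, over 42 CpGs, it was 0.834 and 0.630 for these pairs and 0.00136 to 0.563 for the others. At Ptprm, over 120 CpGs, it was 0.684 and 0.641, and 0.0562 to 0.354 for the others. These values describe CpGs that share molecules and are not independent replicates, and the pairs also stood apart over the whole genome, as given above. At Mdga2, UC 1 and UC 2 were both over 20 points above both UC 4 and UC 5 at 7 of the 60 CpGs, and UC 4 and UC 5 above both UC 1 and UC 2 at 4. At Opcml these counts were 5 and 1 of 42, and at Ptprm 1 and 0 of 120. Over all CpGs with a low control level and this depth, the shares were 1.68% and 1.32%. Over all CpGs of this depth at any control level, they were 6.40% and 3.51%.

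**Figure D3:**
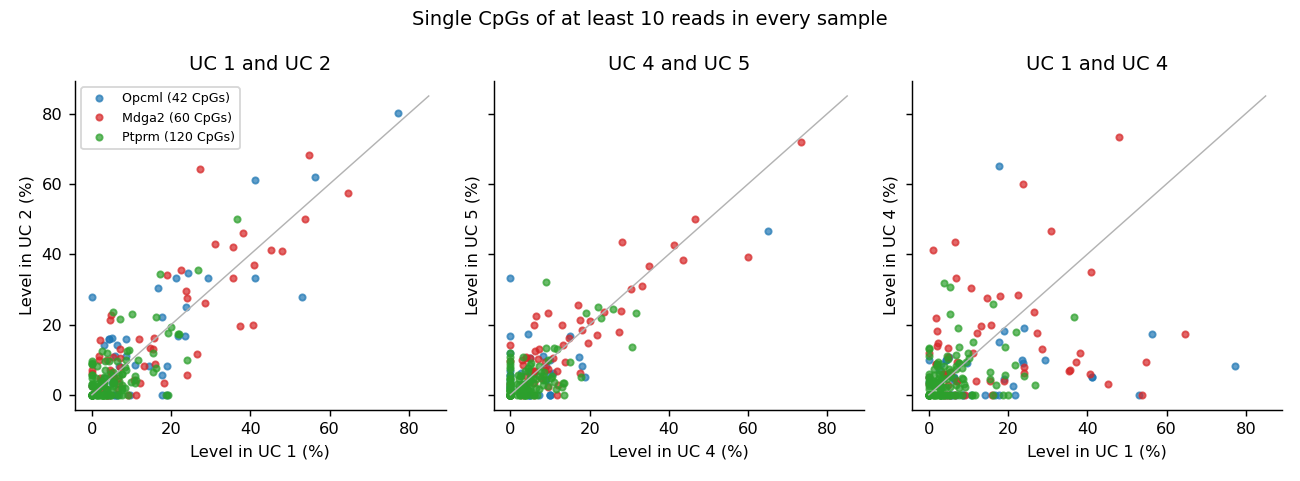
Methylation level (%) of single CpGs that had 10 or more reads in each sample, in UC 1 against UC 2, UC 4 against UC 5 and UC 1 against UC 4, with Opcml in blue, Mdga2 in red and Ptprm in green and the line of equal levels in grey. CpGs lie near the line for UC 1 and UC 2 and for UC 4 and UC 5, and high CpGs scatter away from it for UC 1 and UC 4.

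Within the Mdga2 window, the pairs of UCs were high in different places. Over the 20 CpGs at chr6:89292338-89292506, beside the region, the levels were 10.2%, 9.84%, 4.17%, 19.2% and 19.6% in UCs 1 to 5 and 1.16% to 2.79% in controls. Over the 36 CpGs farther upstream, at chr6:89292832-89293332, they were 24.7%, 27.8%, 12.1%, 11.7% and 15.1%, and 1.45% to 2.34% in controls. UC 4 and UC 5 were the highest UCs in the first stretch and UC 1 and UC 2 in the second, and every UC was above every control in both. The 5 CpGs at chr6:89291886-89291940, downstream of the start site, had the largest difference of any stretch, 18.9 points, on only 30 to 65 calls per sample.

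Sequencing coverage, which the choice of regions did not use, was compared as a measure of the DNA copies present. In the 2 Mb around each region, the share of all calls in UCs relative to controls was -0.00 on the log2 scale at Opcml (exact permutation test, two-sided, p = 0.964, n = 3 and 5), -0.06 at Mdga2 (exact permutation test, p = 0.339) and -0.07 at Ptprm (exact permutation test, p = 0.714). At Opcml the difference was smaller in size than the SD of either group. At Mdga2 and Ptprm it was smaller than the UC SD (0.0914 and 0.198) but larger than the control SD (0.0435 and 0.00807). The smallest p that 56 divisions of the samples allow is 0.0179. In a narrower window of 200 kb on either side, the values were -0.23 at Opcml (exact permutation test, p = 0.0714), -0.14 at Mdga2 (exact permutation test, p = 0.232) and -0.12 at Ptprm (exact permutation test, p = 0.536). The Opcml value there was larger than the SD of either group and did not pass 0.05. Relative to the control mean, single UCs in the 2 Mb ranged from 0.898 to 1.15 at Opcml and from 0.884 to 1.03 at Mdga2. At Ptprm, UC 3 was at 0.759, below the other UCs (0.964 to 1.09) and the controls (0.995 to 1.01). UC 3 was also the UC with the lowest methylation of the Ptprm region, and the part of coverage in that level was not tested.

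Compared with the other regions of the study's list, the 3 genes had small differences. Of the listed regions, 199 had at least 3 CpGs read in all samples, with a median difference of 17.5 points (9.59 to 71.0). Counted from the largest, Mdga2 ranked 122, Ptprm 189 and Opcml 190. All UCs were above all controls in 93.5% of the 199, among them Opcml and Ptprm and not Mdga2. UC 3 was the lowest UC in 125 of the 199, which held for Mdga2 and Ptprm, whereas at Opcml UC 3 was next to the highest.

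**Figure D4:**
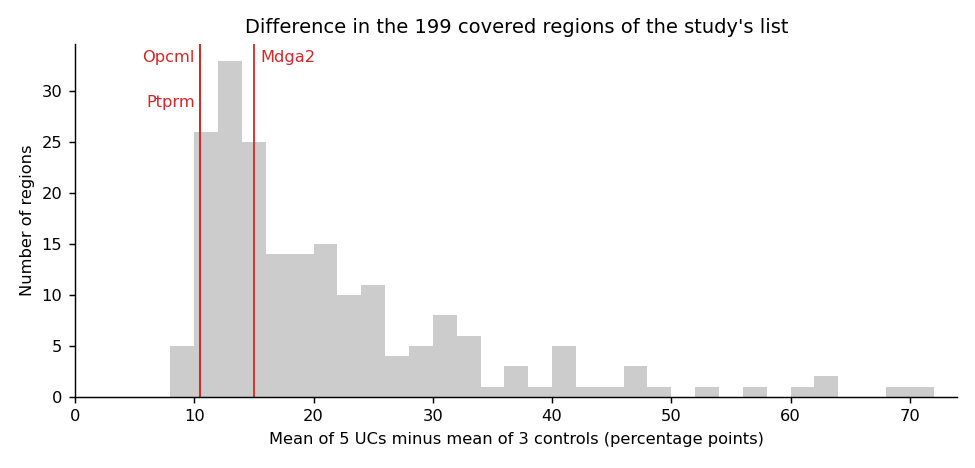
Number of regions of the study's list (199 regions with 3 or more CpGs read in all samples) by the mean of the 5 UCs minus the mean of the 3 controls in percentage points, with the 3 genes marked in red. Opcml (10.4) and Ptprm (10.5) lie at the low end and Mdga2 (15.0) below the median of 17.5.

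The study's list holds 12 other cell adhesion genes and 3 other genes of receptor-type tyrosine phosphatases, chosen by name. All 12 adhesion genes had every UC above every control, with a median difference of 14.5 points (10.2 to 31.7), and so did the 3 phosphatase genes, with 12.7 points (11.4 to 45.4). These counts follow from how the list was made. Ntm, the other IgLON gene of the list, had levels of 0%, 0.543% and 0.690% in controls and of 17.4%, 11.1%, 18.9%, 8.09% and 7.66% in UCs 1 to 5, a difference of 12.2 points. As at Opcml, UC 4 and UC 5 were the lowest UCs at Ntm. The largest differences were 45.4 points at Ptprn2, a phosphatase-like protein of secretory granules, and 31.7 points at Pcdhac1, a protocadherin. The smallest were 10.2 points at Nfasc, the neuronal adhesion molecule neurofascin, and 11.4 points at Ptprn, a relative of Ptprn2.

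Among the regions whose levels over the 8 samples were most like those of Opcml were Nfasc (r = 0.970) and Asic2 (0.968). For Mdga2 the 3 most alike were Art5 (0.938), Nkapl (0.933) and Ctnna2 (0.932). For Ptprm they were Kcnd3 (0.976), Kcnq5 (0.971) and Gpx7 (0.971). Between the 3 genes, r was 0.584 for Opcml and Mdga2, 0.669 for Opcml and Ptprm and 0.755 for Mdga2 and Ptprm. All these values come from the same 8 samples, and r is given as a description with 198 regions compared. The regions were listed for higher levels in these UCs than in these controls. That shared step can by itself give a high r between listed regions, and the group means were not removed. The named regions are also the highest of those compared, and the usual r between listed regions is not given. These values therefore cannot show that any region is particularly like another.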

How the data were processed

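RRBS reads DNA next to MspI and TaqI sites after bisulfite conversion and gives the share of cytosines that are methylated at each CpG. Per the methods, a service provider of the authors trimmed adapters, mapped the reads uniquely with RRBSMAP and discarded barcode duplicates, and the deposited coordinates are rn6. The submitters' processing notes name HOMER for annotation. For each CpG the authors deposited a count of C calls and a count of all C and T calls, pooled over the strands, counts of the bases seen opposite, and an effective C and T count, which is an expected count that their caller corrected for base variants. No CpG under 3 reads was present.

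The level of a region or stretch was its summed C calls divided by its summed C and T calls over CpGs read in all 8 samples, as a percent of the deposited counts. Group values are means of the samples' levels with SDs. Stretches were runs of CpGs outside a region, split where neighbouring CpGs were 100 bp or more apart. Scripts used Python 3.11.15, numpy 2.4.6, pandas 2.3.3 and scipy 1.17.1 and were tested on simulated data. No test was made of the methylation difference, since it chose the regions. Coverage was compared by an exact permutation test of the log2 share of calls. Precision follows from the calls behind each value, which were 36 to 1200 per region. The named single CpGs were, per gene, the 4 with the largest difference and the 4 with the widest range among UCs at 10 reads or more. Named genes were the 3 genes, Ntm, the 2 highest and 2 lowest of the related lists and the 3 most alike regions per gene, of which 1 is not reported here. The genes, lists and rules were chosen with earlier results of these data known. Alternatives were a minimum of 10 reads, the effective count, the mean of single CpGs, merged UC pairs, the replicate number as a block, other coverage windows and samples left out. Promoters came from RefSeq (GRCr8) and matched 2 of the 3 genes.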

Additional observations from a re-analysis of the deposited data

Results flagged for a closer look

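In 2 of 34 measures tested over the 5 UCs, a single UC was far from the others, its gap to the nearest divided by the whole range being above 0.71 (Dixon's test). Chance flags about 1 in 20 groups, but that rate does not hold for single CpGs, which were measured here because of their large difference or wide range among UCs. Over the 46 CpGs downstream of the Ptprm region, UC 3 was at 2.15%, and the other UCs were at 5.97% to 7.24%. At the CpG chr9:115555285 of the Ptprm promoter, at base -25, UC 5 was at 32.0%, and the other UCs were at 0% to 9.09%.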

How the results depend on the processing

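The differences in the 3 regions and in the stretches of at least 3 CpGs stayed positive under all alternatives, except that the Opcml stretch chr8:29453372-29453784 went to -0.41 points without UC 1 and UC 2, an alternative added after the data were seen. Of the single-sample omissions, 155 values stayed, 7 moved and 6 changed sign, and of the other alternatives 118 stayed, 8 moved and 4 changed sign. The class of values that stayed was wide and included large changes, so these counts do not measure robustness. In it was the same Opcml stretch without the CpG that differed most between UCs, at 1.30 points against 5.86. Also in it was Opcml coverage (log2) with 200 kb on either side, at -0.23 against -0.00. The cause was not tested where a value moved. With the UC pairs merged, so that fewer samples had to separate, CpGs with every UC above every control numbered 6 in the Opcml region and 8 outside it, 2 in the Mdga2 region, and 38 outside the Ptprm region.

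Replicate numbers are shared by controls and UCs but name different rats. Deviations of same-numbered samples correlated at 0.0282, -0.0158 and 0.0260 over 1203632 CpGs. Those of samples with different numbers correlated at -0.0391 to 0.0364, so no pairing by number was seen. Whether samples of 1 number shared a batch cannot be told from these values. Only UC 1 to UC 3 enter the replicate block. For its counts, each of these UCs had only to be above the control of the same number. That rule is looser than every UC above every control, and its share over all CpGs was not computed. Nothing is therefore read from the larger counts. With that block of within-number comparisons, the counts were 12 in the Opcml region and 10 outside it, 37 outside the Mdga2 region and 34 outside the Ptprm region, and coverage was 0.0624 (log2) at Opcml and 0.00324 at Mdga2.

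Leaving out 1 sample at a time, the counts ranged from 2 to 5 in the Opcml region (highest without UC 4), from 4 to 7 outside it (highest without control 1), from 1 to 2 in the Mdga2 region (2 without control 1) and from 20 to 38 outside the Ptprm region (38 without UC 3). A count of this kind can only stay or rise when a sample is left out, so these ranges have no lower side. Coverage (log2) ranged from -0.0690 to 0.0411 at Opcml and from -0.113 to 0.0161 at Ptprm (0.0161 without UC 3). It was 0.0224 at Opcml with the UC pairs merged. With 200 kb on either side it was -0.23, -0.14 and -0.12 at Opcml, Mdga2 and Ptprm, against -0.00, -0.06 and -0.07. Depth limited the Mdga2 region most, since its 36 calls in control 1 left an interval that overlapped with all UCs.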
